A study of Mus musculus with 32 samples.

Results

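Open chromatin was described at 10 mouse genes of the inflammatory response: the cytokines Il1b, Il1a, Il6, Tnf and Osm, the chemokines Ccl3, Ccl4 and Cxcl2, and the NF-kB feedback inhibitors Nfkbia and Tnfaip3. Their regions were those of the deposited count tables whose midpoint lay in the mm10 span of a gene, or within 50 kb of it with no other named gene nearer. That gave 52 of 99037 regions in the table of developmental libraries and 52 of 147852 in the table of cultured libraries. The cells were LSK cells of C57BL/6 mice, the lineage-negative, Sca-1+ and Kit+ fraction that holds blood stem and progenitor cells, and ATAC-seq counts the Tn5 insertions that mark open DNA. The groups were E12.5 fetal liver (E12.5 FL, n = 3), E12.5 PL (n = 3, the abbreviation is not spelled out in the labels), E16.5 FL (n = 3), and bone marrow that was Perinatal (n = 3) or 1 week (1w, n = 3), 3w (n = 2), 4w (n = 3), 6w (n = 3) and 8w (n = 3) old. A separate table held E12.5 FL cells kept for 2 h, either in a medium that hepatocytes of E16.5 had conditioned (co-SHI, n = 3) or in basic medium (SHI, n = 3), with 3 columns named E12.5 FL.

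In resting cells NF-kB dimers are held in the cytoplasm by inhibitors such as IκBα, the product of Nfkbia. Signals through the receptors of IL-1, TNF or microbial products lead to the loss of IκBα, and freed dimers bind κB sites at cytokine and chemokine genes and at Nfkbia and Tnfaip3 themselves, whose products then limit the signal. Stem and progenitor cells carry several of these receptors and can respond to inflammatory cytokines. Accessibility is not expression: an open region shows where factors can bind, not that the gene was transcribed. In a bulk library a larger share of cells with an open region cannot be told apart from more insertions per cell.

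The 52 developmental regions were shared unevenly: Nfkbia and Tnfaip3 had 13 each, Ccl4, Cxcl2, Il1a and Osm 4 each, Ccl3 and Il1b 3 each, and Il6 and Tnf 2 each. Of these, 35 were intergenic, 10 lay within 1 kb of a gene end and 7 lay inside a gene body. Regions covered the annotated start sites of Tnfaip3, Nfkbia, Tnf, Il6 and Cxcl2, and none covered those of Il1b or Il1a. The RefSeq span of Ccl4 (chr11:83648624-83664683) overlaps that of Ccl3 (chr11:83647843-83649378), so the region over the Ccl3 start site (chr11:83649286-83649813) was counted under Ccl4. When predicted and noncoding annotations were allowed to compete, 21 of the 52 regions were nearer to one of those, so an assignment to a gene says where a region lies and not what it controls.

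The promoters shown here are the 250 bases before the start site of Cxcl2, Nfkbia and Tnfaip3, whose start-site regions were called more open at the move to marrow, and of Il6, whose signal lies mostly at its start site. They were taken from RefSeq (GRCm38.p6, the mm10 build). Capitals mark matches to the NF-kB consensus and to the AP-1 motif TGANTCA, searched on both strands.
Cxcl2, chr5:90903649-90903898, plus strand: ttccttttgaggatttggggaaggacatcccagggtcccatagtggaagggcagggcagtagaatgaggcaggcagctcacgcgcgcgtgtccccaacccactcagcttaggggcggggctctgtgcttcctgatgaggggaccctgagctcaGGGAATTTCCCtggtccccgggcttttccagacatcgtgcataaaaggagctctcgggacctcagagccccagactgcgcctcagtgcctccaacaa
Nfkbia, chr12:55492648-55492897, minus strand: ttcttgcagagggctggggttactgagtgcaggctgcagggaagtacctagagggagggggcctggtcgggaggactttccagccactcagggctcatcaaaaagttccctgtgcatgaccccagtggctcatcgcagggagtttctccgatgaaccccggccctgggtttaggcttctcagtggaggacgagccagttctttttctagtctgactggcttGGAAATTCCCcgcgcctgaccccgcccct
Tnfaip3, chr10:19015411-19015660, minus strand: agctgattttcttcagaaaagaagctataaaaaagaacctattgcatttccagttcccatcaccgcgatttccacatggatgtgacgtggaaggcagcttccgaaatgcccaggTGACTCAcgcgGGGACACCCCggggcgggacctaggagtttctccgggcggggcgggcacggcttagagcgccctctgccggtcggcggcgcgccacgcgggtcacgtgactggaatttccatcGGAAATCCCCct
Il6, chr5:30012864-30013113, plus strand: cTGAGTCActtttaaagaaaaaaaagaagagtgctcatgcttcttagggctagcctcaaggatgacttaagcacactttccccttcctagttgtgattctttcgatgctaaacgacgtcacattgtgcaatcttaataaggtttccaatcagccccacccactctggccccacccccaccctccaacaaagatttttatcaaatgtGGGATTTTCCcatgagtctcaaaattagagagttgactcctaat
All 4 held an NF-kB match, at bases -97 to -87 of Cxcl2 (a pair of overlapping matches), -29 to -20 of Nfkbia, -125 to -116 and -12 to -3 of Tnfaip3, and -44 to -35 of Il6, counted from the start site. Among all 32851 promoter windows of the same length, 3.9% held an NF-kB match and 6.75% an AP-1 match. Entries were found for 8 of the 10 genes, and no NF-kB match lay in the windows of Il1b, Il1a, Tnf or Ccl3. AP-1 matches were present in those of Il1a, Il6 and Tnfaip3. A match describes the letters only.

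Counts in regions totalled 2845113 to 10167340 per developmental library, with both extremes in 1w marrow. The 4 LSK markers (Kit, Ly6a, Ptprc and Cd34) summed to 323 to 475 CPM (counts scaled to library size) in every developmental library and none was at 0. Ly6a, which encodes Sca-1, was low, at 2.24 ± 1.46 CPM in E12.5 FL against 4.72 ± 0.642 CPM in E12.5 PL (mean ± SD of 3 libraries each). The E12.5 liver libraries differed from the PL ones at these markers, with Ptprc, the pan-leukocyte CD45 gene, at 137 ± 15.8 CPM in E12.5 FL against 43.7 ± 5.26 CPM in E12.5 PL. One library titled 8w BM carries the stage label E12.5. It was kept with the 8w group by its title. Nothing in the labels ties the libraries to separate animals, so p-values measure the spread between libraries, which may be technical.

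**Figure D1:**
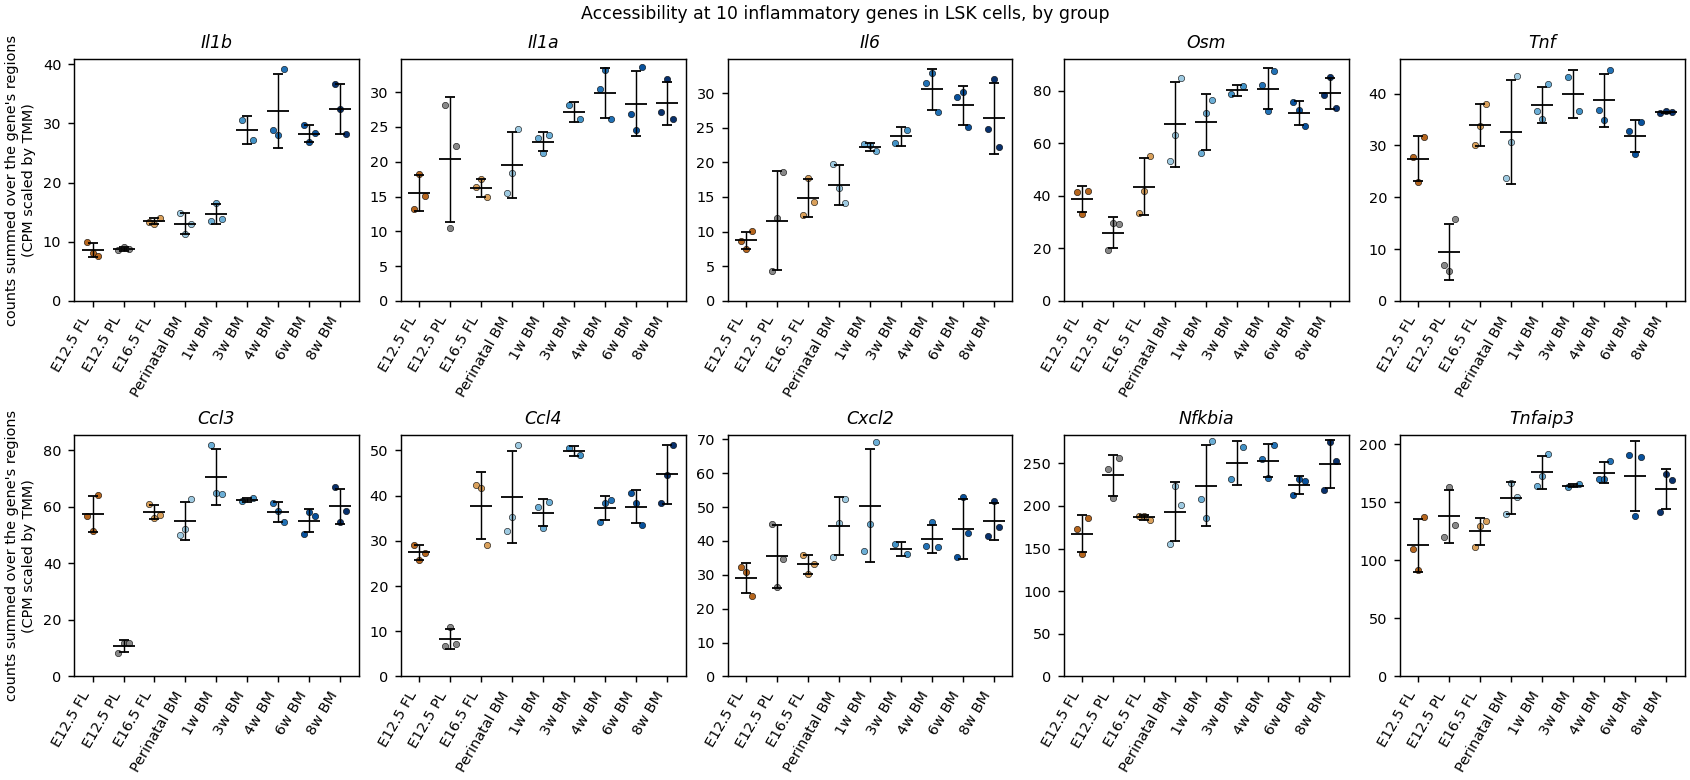
Accessibility summed over the regions of each gene, in CPM scaled by TMM, for each of the 26 developmental libraries (points), with the group mean and SD (bars). Gene sums were scaled on their own, so they are not the sums of the region CPM. Il1b lies between 7.67 and 16.6 CPM in every library up to 1w marrow and between 26.8 and 39.3 CPM from 3w on, while Ccl3 and Ccl4 are low in the 3 E12.5 PL libraries.

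Il1b, which encodes the secreted pyrogen IL-1β, gained accessibility late, mostly at a distal region that lies nearer to another annotated gene. Its summed level in E12.5 FL was 9.98, 8.14 and 7.67 CPM, in E12.5 PL 8.53, 9.19 and 8.69 CPM, and in E16.5 FL 13.4, 13 and 14.0 CPM. Perinatal marrow had 14.8, 11.3 and 12.9 CPM and 1w marrow 13.6, 16.6 and 13.9 CPM. Marrow had 30.5 and 27.3 CPM at 3w, 28.9, 28.0 and 39.3 CPM at 4w, 29.7, 26.8 and 28.4 CPM at 6w, and 36.7, 32.4 and 28.3 CPM at 8w. No library from 3w on overlapped any younger library, and the gap lay between 1w and 3w. By edgeR's quasi-likelihood test over 16849 genes with Benjamini-Hochberg adjustment, Il1b was higher at 3w than at 1w, with a log2 fold change of 1.00 ± 0.20 (SE) and an adjusted p of 0.0226. It was 1 of 16 genes called in that step, 0.095% of those tested (0.0772% higher), and the only gene of the 10. The call depended on which libraries were included: the log2 fold change stayed between 0.91 and 1.08 when either 3w library or any 1w library was left out, but the adjusted p was above 0.05 in 4 of those 5 fits, reaching 0.512 without 3w replicate 1. It was 0.0890 with all libraries thinned to the smallest and 0.0784 with only the compared groups in the fit. Over the whole marrow interval it averaged 32.5 ± 4.21 CPM at 8w and 13 ± 1.77 CPM in Perinatal marrow, a log2 fold change of 1.33 ± 0.19 with an adjusted p of 9.75e-06. Without the library that carries the E12.5 stage label the log2 fold change was 1.42 (adjusted p = 2.42e-05). Summed over its regions within 5 kb alone, Il1b was not called for 8w over Perinatal marrow (log2 fold change 0.46, adjusted p = 0.472) or for 3w over 1w (1.03, adjusted p = 0.341). In that comparison of 8w with Perinatal marrow 4.62% of all genes were called in either direction and 1.93% higher, and Il1b alone among the 10. A test over any of the 6 marrow groups called 5.28% of genes and, of the 10, again Il1b (adjusted p = 8.11e-07). Beside this, the 10 macrophage and monocyte markers summed to 548 to 810 CPM at 8w and 600 to 796 CPM in Perinatal marrow, and to 625 to 626 CPM at 3w and 540 to 629 CPM at 1w. Of these markers 1 was called higher for 8w over Perinatal marrow, 1 was called over any of the 6 marrow groups and 0 for 3w over 1w. Their part in the result was not tested.

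In order of mean level the groups ran E12.5 FL (8.59 CPM), E12.5 PL (8.80), Perinatal (13), E16.5 FL (13.5), 1w (14.7), 6w (28.3), 3w (28.9), 4w (32.1) and 8w marrow (32.5). The 2 lowest groups overlapped each other, as did Perinatal, E16.5 FL and 1w among themselves and 3w to 8w among themselves. All 3 E16.5 FL libraries were above the 3 E12.5 FL ones, but the difference did not pass the test (adjusted p = 0.540).

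A single distal region carried most of the change at Il1b. It lies at chr2:129337906-129338869, 26182 bp past the 3′ end of the gene span and 32752 bp downstream of the start site, in the interval between Il1b and Il1a. Its midpoint is nearer to the span of Il1b than to that of Il1a. Of the start sites, that of Il1a (chr2:129309972) is nearer than that of Il1b (chr2:129371139). The annotated gene nearest to the region, of any kind, is Gm18333, so its link to Il1b is by position alone. Its levels in CPM were 4.53, 1.87 and 3.93 for E12.5 FL, 4.57, 5.18 and 5.09 for E12.5 PL, and 4.42, 6.75 and 3.67 for E16.5 FL. They were 5.81, 4.41 and 5.84 CPM in Perinatal marrow, 8.97, 11.4 and 6.74 CPM at 1w, and 17.4 and 16.8 CPM at 3w. At 4w they were 15.4, 17.6 and 23.5 CPM, at 6w 18.5, 19.3 and 16.2 CPM, and at 8w 26.6, 22.8 and 14.6 CPM. The 1w libraries all lay above the Perinatal ones and below those of 3w and later, whereas the gene's sum at 1w overlapped that of Perinatal marrow. Neither single step passed the adjustment over 99005 regions: 1w over Perinatal gave a log2 fold change of 0.71 ± 0.31 (adjusted p = 0.472) and 3w over 1w gave 0.98 ± 0.29 (adjusted p = 0.203). For 3w over 1w edgeR called 0 of the 52 regions, against 0.0889% of all regions, and DESeq2 called 0 of the 52. An unadjusted p under 0.05 (edgeR) was found for 4 of the 52, against 8145 of all 99005. For the distal region the whole interval passed the test, at 21.3 ± 6.14 CPM in 8w and 5.35 ± 0.819 CPM in Perinatal marrow. The log2 fold change was 2.01 ± 0.29 (edgeR, adjusted p = 1.73e-06), or 2.22 without the library with the E12.5 stage label. Regions called there were 2 of the 52, both higher, against 2.87% of all regions in either direction and 1.37% higher, and over any marrow group 1 of the 52, this one, against 3.52%.

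The other 2 regions of Il1b were low throughout. One inside the gene (chr2:129368021-129368559, 2849 bp past the start site) averaged 4.53 CPM at 3w and 1.55 CPM at 1w, and all libraries from 3w on were above all those of 1w. Its log2 fold change between 3w and 1w was 1.45 ± 0.53, with an unadjusted p of 0.00755 and an adjusted p of 0.365 (edgeR). How many of all regions were separated in this way was not counted. The third (chr2:129359988-129360686) overlapped between those groups. The authors' peak lists changed at the distal region between Perinatal and 1w marrow, before the gap between 1w and 3w in the gene's sum. A peak overlapped the distal region in none of the 3 libraries of E12.5 FL, E12.5 PL, E16.5 FL or Perinatal marrow. It had a peak in all libraries of 1w, 3w, 4w, 6w and 8w marrow. The 1w group holds the deepest developmental library as well as the shallowest, and both had the peak. Peak lists held 24038 to 40830 peaks in Perinatal marrow and 30360 to 50706 at 1w. The part of depth and list length was not tested.

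**Figure D2:**
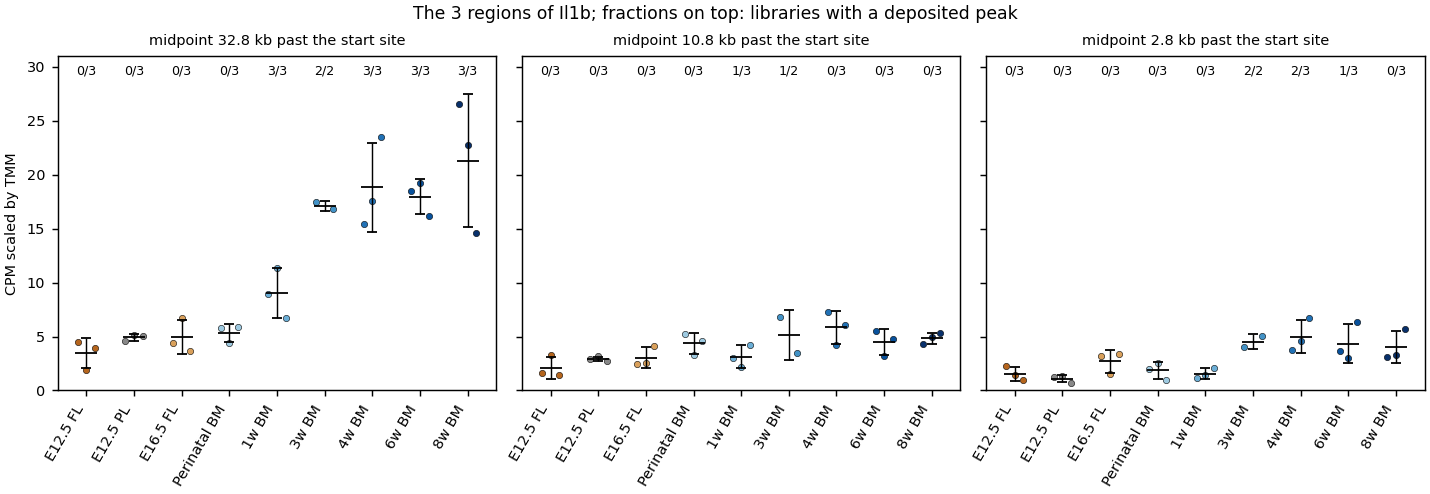
The 3 regions of Il1b in CPM scaled by TMM, by developmental group, with each library as a point and the group mean and SD as bars and fractions giving the libraries with a deposited peak. The distal region is at 14.6 CPM or more in every library from 3w on and at 6.75 CPM or less in every library before 1w. The 1w libraries range from 6.74 to 11.4 CPM.

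Il6 and Il1a had higher means in later marrow, but not beyond the threshold. All 10 genes had a positive log2 fold change for 8w over Perinatal marrow, so the direction is not particular to Il6 and Il1a. Il6 encodes a cytokine that acts through gp130, and Il1a the second IL-1 ligand, which can signal from damaged cells. Il6 had 24.8, 32.1 and 22.2 CPM at 8w against 19.8, 16.3 and 14.1 CPM in Perinatal marrow, groups that did not overlap, with a log2 fold change of 0.67 ± 0.25 (edgeR, adjusted p = 0.118). Its 11 libraries from 3w to 8w ranged from 22.2 to 32.9 CPM, with a median of 27.3, and did not overlap the 9 libraries of liver and Perinatal marrow, which ranged from 7.55 to 19.8 CPM with a median of 14.1. That split leaves out E12.5 PL and 1w marrow, the latter at 21.6 to 22.7 CPM. How many of all genes were separated in these ways was not counted, so the separation is not read as a trait of Il6. Most of Il6 lies in its start-site region (chr5:30012662-30013553), which averaged 7.83 CPM in E16.5 FL, 11.8 in Perinatal marrow, 17.0 at 1w, 16.4 at 3w, 22.7 at 4w, 21.8 at 6w and 19.2 at 8w. No step of this region from E12.5 FL to 8w passed the test, and 8w over Perinatal marrow gave a log2 fold change of 0.71 ± 0.28 (adjusted p = 0.171). With only the 6 marrow groups in the fit, the test over any of them gave the sum of Il6 an adjusted p of 0.0164, against 0.160 with all groups. A peak overlapped it in 2 of 3 Perinatal libraries, in 1 of 3 of E16.5 FL and in all libraries from 1w on.

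Il1a had 27.2, 31.9 and 26.1 CPM at 8w and 15.5, 18.4 and 24.7 CPM in Perinatal marrow, a log2 fold change of 0.54 ± 0.22 (adjusted p = 0.169). Its most open region, chr2:129313859-129314383, lies with its midpoint 4149 bp upstream of the start site. That region averaged 16.1 CPM at 8w and 8.92 CPM in Perinatal marrow, with no overlap, a log2 fold change of 0.84 ± 0.28 and an adjusted p of 0.0923. How many of all regions were separated in this way was not counted. Across the 9 group means of log2 CPM, the correlation with Il1b was 0.93 for Il6 and 0.93 for Il1a and 0.47 for Ccl3, a description over points that share libraries and scaling.

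At the move to marrow few of the regions were called, a share near that of regions in general. Perinatal marrow over E16.5 FL called 5 of the 52, all higher, against 8.03% of all regions in either direction and 6.66% higher. The 5 were those over the start sites of Cxcl2, Nfkbia and Tnfaip3, whose sequences stand above, one at an end of Osm and one 47047 bp upstream of Tnfaip3. At gene level 1 of the 10 was called, Osm, which was higher, against 16% of all genes in either direction and 9.22% higher, which gives the members no excess over genes in general. The 5 regions depend on the scaling: 3 were called with DESeq2's size factors and 1 of them, that of Cxcl2, with total counts or with the compared groups alone. None was called with cyclic loess offsets, where all 5 log2 fold changes were still above 0. The split over all regions moved too: of those called, 76.9% were higher with DESeq2's size factors, 59.2% with total counts and 50.5% with cyclic loess offsets, and of all genes called 43.5% were higher with total counts. Over all regions the log2 fold change had a median of -0.04 as scaled here, -0.11 with DESeq2's size factors and -0.23 with total counts.

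Cxcl2, a chemokine that attracts neutrophils, showed the largest log2 fold change of the 5. Its start-site region (chr5:90902848-90904106) had 21.8, 31.2 and 36.8 CPM in Perinatal marrow against 14.2, 14.5 and 11.7 CPM in E16.5 FL. The log2 fold change was 1.15 ± 0.24 (edgeR, adjusted p = 0.00108), and peaks overlapped it in 3 of 3 Perinatal libraries and 0 of 3 of E16.5 FL. With cyclic loess offsets the log2 fold change was 0.77 (adjusted p = 0.0612). The region averaged 35.5 CPM at 1w and 25.2 to 30.5 CPM from 3w to 8w, and 8w over Perinatal marrow gave a log2 fold change of 0.03 ± 0.22, which was not called.

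The start-site region of Nfkbia (chr12:55491689-55493045), the most open of all 52, had 70.3, 120 and 88.6 CPM in Perinatal marrow against 51.6, 69.0 and 59.4 CPM in E16.5 FL, a log2 fold change of 0.64 ± 0.18 (adjusted p = 0.0157). That of Tnfaip3 (chr10:19014336-19015705), which encodes the ubiquitin-editing enzyme A20, had 43.9, 50.5 and 51.0 CPM against 28.7, 35.8 and 32.0 CPM in the same groups, a log2 fold change of 0.59 ± 0.18 (adjusted p = 0.0256). Both carried peaks in all libraries of all 9 groups. With cyclic loess offsets the log2 fold changes were 0.07 at Nfkbia (adjusted p = 0.897) and 0.11 at Tnfaip3 (adjusted p = 0.815). The Nfkbia call ended without E16.5 FL replicate 1 or 3 or Perinatal replicate 2 (adjusted p = 0.0525 to 0.272). That of Tnfaip3 ended without E16.5 FL replicate 1 or 3 or Perinatal replicate 2 or 3 (0.0710 to 0.138), and after thinning to the smallest library (0.0590). The upstream Tnfaip3 region (chr10:19061983-19062931) averaged 42.1 ± 12.8 CPM in Perinatal marrow and 26.9 ± 6.52 CPM in E16.5 FL (log2 fold change 0.66 ± 0.21, adjusted p = 0.0383), a call that ended without E16.5 FL replicate 1 or 3 or Perinatal replicate 2 (0.0768 to 0.443).

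Osm, encoding oncostatin M, a gp130 cytokine, had 53.4, 63.4 and 84.9 CPM in Perinatal marrow and 33.6, 41.7 and 55.1 CPM in E16.5 FL. The ranges overlap by 1 library on each side, and the log2 fold change was 0.63 ± 0.17 (edgeR, adjusted p = 0.0113). Leaving out Perinatal replicate 3 or E16.5 FL replicate 1 ended the call (adjusted p = 0.0749 and 0.104). Its main region (chr11:4236111-4237954), over one end of the gene, had 27.9, 26.1 and 44.7 CPM against 13.8, 17.5 and 25.2 CPM, without overlap, and carried peaks in 3 of 3 Perinatal and 0 of 3 E16.5 FL libraries. Its call ended without the same libraries (adjusted p = 0.175 and 0.135). Its mean then stood at 38.8 CPM at 1w and 45.6 to 48.3 CPM from 3w to 8w. Beside these values, the 10 macrophage and monocyte markers summed to 600 to 796 CPM in Perinatal marrow and 1207 to 1527 CPM in E16.5 FL, a lower sum that lay mostly in Ly6c2 (350 ± 121 CPM in Perinatal marrow against 995 ± 152 CPM in E16.5 FL). None of those 10 markers was at 0. The 6 neutrophil markers tested summed to 178 to 193 CPM in Perinatal marrow and 189 to 214 CPM in E16.5 FL, with 1 of them at 0 in a Perinatal library. The part of these markers in the result was not tested.

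Within marrow, a further Nfkbia region changed: chr12:55487592-55488092, 1567 bp past the 3′ end of the gene, had 11.2, 16 and 15.5 CPM at 8w against 2.61, 6.61 and 8.63 CPM in Perinatal marrow (log2 fold change 1.23 ± 0.33, adjusted p = 0.0217). Leaving out 8w replicate 2 or 3, or Perinatal replicate 1 or 2, ended that call, with adjusted p-values of 0.0584 to 0.180. No library had a deposited peak there. The gene's sum was not called in the same comparison, at 249 ± 28.1 CPM in 8w and 193 ± 34.7 CPM in Perinatal marrow (adjusted p = 0.0854). Between other neighbouring ages no gene of the 10 and no region of the 52 passed the test: this held for 1w over Perinatal, 4w over 3w, 6w over 4w and 8w over 6w, where 0.249%, 0%, 0.19% and 0.0178% of all genes and 0.181%, 0.00808%, 0.176% and 0.097% of all regions were called. Of the 52 regions 6, 2, 3 and 2 had an unadjusted p under 0.05 (edgeR) in these comparisons, against 8875, 4102, 7284 and 4478 of all 99005. DESeq2 called none of the 52 either. For 4w over 3w, edgeR called 0 of all genes while 643 had an unadjusted p under 0.05. E16.5 FL over E12.5 FL called none of the 10 and none of the 52, against 0% of genes (1301 with an unadjusted p under 0.05) and 0.00101% of regions. All 10 genes had a positive log2 fold change in that step, 3 with an unadjusted p under 0.05 (Il1b, Il6 and Ccl4), and DESeq2 also called none. How many of all genes had a positive value was not counted, and the 10 share 1 scaling, so this is not read as a joint rise.

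Tnf, Ccl3, Ccl4 and Tnfaip3 were called in no comparison within marrow, nor were the sums of Osm, Cxcl2, Il6, Il1a and Nfkbia. Tnf, the founding TNF family ligand, averaged 36.4 ± 0.141 CPM at 8w and 32.6 ± 10.0 CPM in Perinatal marrow, a difference of 0.16 on the log2 scale with a 95% interval of -0.25 to 0.56. For Ccl3 the difference was 0.13 with an interval of -0.14 to 0.39, for Ccl4 0.17 with -0.16 to 0.51, and for Tnfaip3 0.07 with -0.18 to 0.32. These intervals bound the size of any change without showing that there was none.

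The largest contrasts of the 10 genes were between the E12.5 sites. Of the 10, 4 were higher in E12.5 FL than in E12.5 PL (Ccl3, Ccl4, Tnf and Osm) and 1 was lower (Nfkbia), against 26.8% of all genes higher and 22.6% lower (49.4% in either direction). Of the 52 regions 12 were higher and 16 lower, against 23.1% and 26.4% of all regions (49.4% in either direction), so the shares are close to those of regions in general. The split over all regions depends on the scaling: 63.2% of those called were higher with total counts, 35.4% with DESeq2's size factors and 45.2% with cyclic loess offsets, which called 31970 in place of 48927. Over all regions the log2 fold change had a median of 0.09 as scaled here, 0.38 with total counts and -0.12 with DESeq2's size factors.

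Ccl3 and Ccl4 encode MIP-1α and MIP-1β, chemokines of neighbouring genes. Ccl3 had 56.7, 51.4 and 64.3 CPM in E12.5 FL against 8.29, 11.8 and 12 CPM in E12.5 PL, a log2 fold change of 2.42 ± 0.16 (edgeR, adjusted p = 8.56e-15). Ccl4 had 29.1, 25.9 and 27.4 CPM against 6.63, 10.9 and 7.28 CPM (log2 fold change 1.72 ± 0.21, adjusted p = 1.18e-08). The groups were far apart for both genes. In the 7 other groups the mean of Ccl3 was 55.0 to 70.4 CPM. Most of the Ccl3 sum lay in a region 7518 bp past its 3′ end (chr11:83640017-83640634), at 35.6, 34.2 and 37.0 CPM in E12.5 FL against 4.81, 7.43 and 7.17 CPM in E12.5 PL. A deposited peak overlapped that region in every library of the 8 groups other than E12.5 PL, and in 0 of 3 of E12.5 PL. The region over the Ccl3 start site averaged 10.3 ± 1.72 CPM in E12.5 FL against 2.56 ± 0.882 CPM in E12.5 PL (log2 fold change 2.00 ± 0.33, adjusted p = 1.83e-06), and all 7 regions of both genes had a positive log2 fold change, 6 of them past the threshold. Of those 6, 1 region of each gene was called in only 2 of 6 fits that left out a library.

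Tnf had 27.8, 23.0 and 31.6 CPM in E12.5 FL against 6.87, 5.77 and 15.7 CPM in E12.5 PL (log2 fold change 1.54 ± 0.24, adjusted p = 1.57e-06). Of its 2 regions the one inside the gene (chr17:35200354-35200950) was called, at 15.1 ± 4.12 against 4.94 ± 4.34 CPM, and 1 PL library, at 9.95 CPM, stood above the other two at 2.41 and 2.48 CPM. Osm averaged 38.8 ± 4.89 CPM in E12.5 FL against 26 ± 5.91 CPM in E12.5 PL (log2 fold change 0.57 ± 0.18, adjusted p = 0.00824), and without E12.5 PL replicate 1 the adjusted p was 0.0863.

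Of the 16 regions that were less open in E12.5 FL, 6 lay at Nfkbia and 5 at Tnfaip3, the genes with the most regions (13 each), 2 at Cxcl2 and 1 each at Il1a, Il6 and Osm. With total counts the calls at Cxcl2 and Il6, at chr12:55465434-55466000 of Nfkbia and at some Tnfaip3 regions were lost. Each Cxcl2 region and that Nfkbia region were called in 2 of 6 fits that left out a library, and the Il6 region in 3 of 6. Nfkbia had 173, 144 and 186 CPM in E12.5 FL against 243, 209 and 256 CPM in E12.5 PL (log2 fold change -0.49 ± 0.13, adjusted p = 0.00124). Its start-site region had 68.8, 55.5 and 88.1 CPM in E12.5 FL against 150, 107 and 127 CPM in E12.5 PL (log2 fold change -0.85 ± 0.18, adjusted p = 8.3e-05). With cyclic loess offsets that log2 fold change was -0.19 (adjusted p = 0.387). A small distal region, chr12:55473128-55473628, had 1.13, 2.58 and 1.96 CPM in E12.5 FL against 11.5, 19.6 and 14.1 CPM in E12.5 PL, a log2 fold change of -2.98 ± 0.48 (adjusted p = 1.18e-06). Its mean was under 4 CPM in every other group, with peaks in 2 of 3 PL libraries and in no other library. At Nfkbia 2 further distal regions were higher in E12.5 FL. One, chr12:55458380-55458926, averaged 4.38 ± 0.633 CPM in E12.5 FL against 1.49 ± 0.754 CPM in E12.5 PL (adjusted p = 0.0117). The other, chr12:55505985-55506485, averaged 4.72 ± 1.33 against 2.02 ± 0.610 CPM (adjusted p = 0.0429) and was called in 2 of 6 fits that left out a library.

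Il1a had regions moving in opposite directions, which its sum does not show. The region 20561 bp upstream of the start site (chr2:129330069-129330998) had 1.81, 3.51 and 2.70 CPM in E12.5 FL against 20.9, 5.85 and 17.1 CPM in E12.5 PL (log2 fold change -2.44 ± 0.41, adjusted p = 2.52e-06). The region 4149 bp upstream had 7.70, 8.43 and 7.11 CPM against 3.61, 1.13 and 1.39 CPM (log2 fold change 1.93 ± 0.37, adjusted p = 3.31e-05). Summed, Il1a averaged 15.5 ± 2.58 CPM in E12.5 FL against 20.3 ± 9.02 CPM in E12.5 PL and was not called, but without E12.5 PL replicate 2 it was (log2 fold change -0.70, adjusted p = 0.00768). The sum over the regions within 5 kb alone had the other sign, with a log2 fold change of 2.25. Tnfaip3 was likewise mixed, with 5 of its 13 regions lower and 1 higher in E12.5 FL. Its sum was lower on average, at a log2 fold change of -0.29 ± 0.13 (adjusted p = 0.0621), and DESeq2 called it (adjusted p = 0.0455). Il1b was not called, at a log2 fold change of -0.03 with a 95% interval of -0.48 to 0.42.

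**Figure D3:**
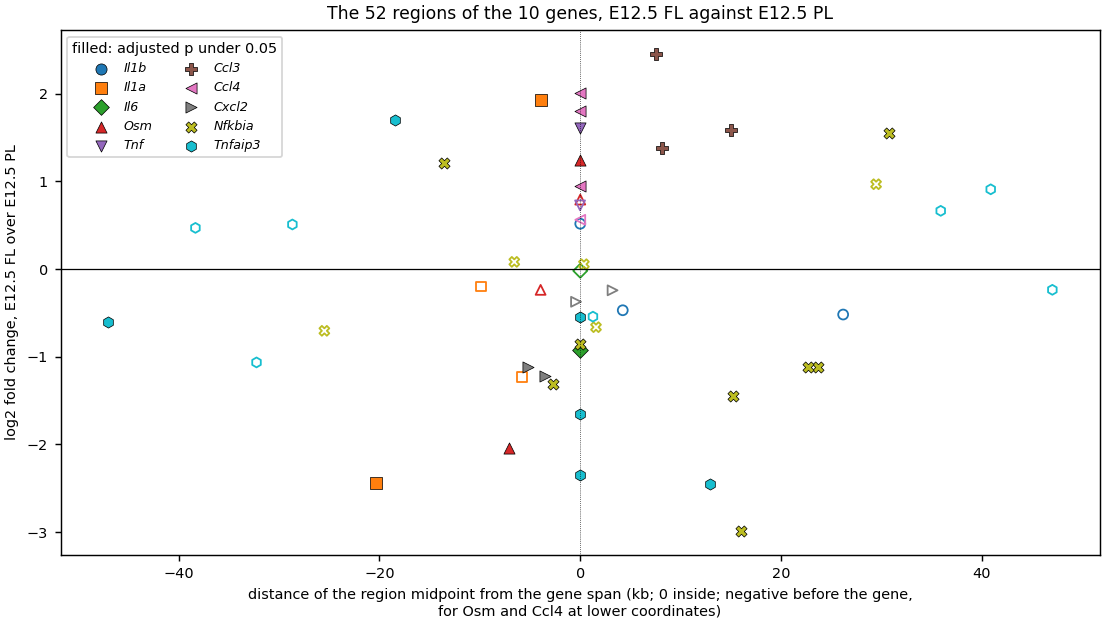
log2 fold change, E12.5 FL over E12.5 PL, of each of the 52 regions against the distance of its midpoint from the gene span in kb, where filled symbols passed an adjusted p of 0.05 (edgeR). All 7 regions of Ccl3 and Ccl4 are above 0, while those of Nfkbia, Tnfaip3 and Il1a lie on both sides.

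Markers of other cells moved with these contrasts, in a comparison where 49.4% of all genes were called, 26.8% higher and 22.6% lower. Of the 10 macrophage and monocyte markers 7 were higher and 1 lower in E12.5 FL, with sums of 1122 to 1265 CPM in E12.5 FL against 559 to 701 CPM in E12.5 PL. Of 8 neutrophil markers 6 were tested and 4 were higher, with sums of 194 to 215 CPM in E12.5 FL against 58.7 to 74.0 CPM in E12.5 PL. All 4 endothelial markers were lower in E12.5 FL, with sums of 324 to 359 CPM in E12.5 FL against 430 to 667 CPM in E12.5 PL. Of the markers tested in the other lists, 2 of 2 erythroid, 2 of 4 lymphoid and 1 of 2 mast cell ones were higher. Of 4 hepatocyte markers 2 were higher and 1 lower. None of the markers with regions was at 0 in either group, and their part in the result was not tested.

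**Figure D4:**
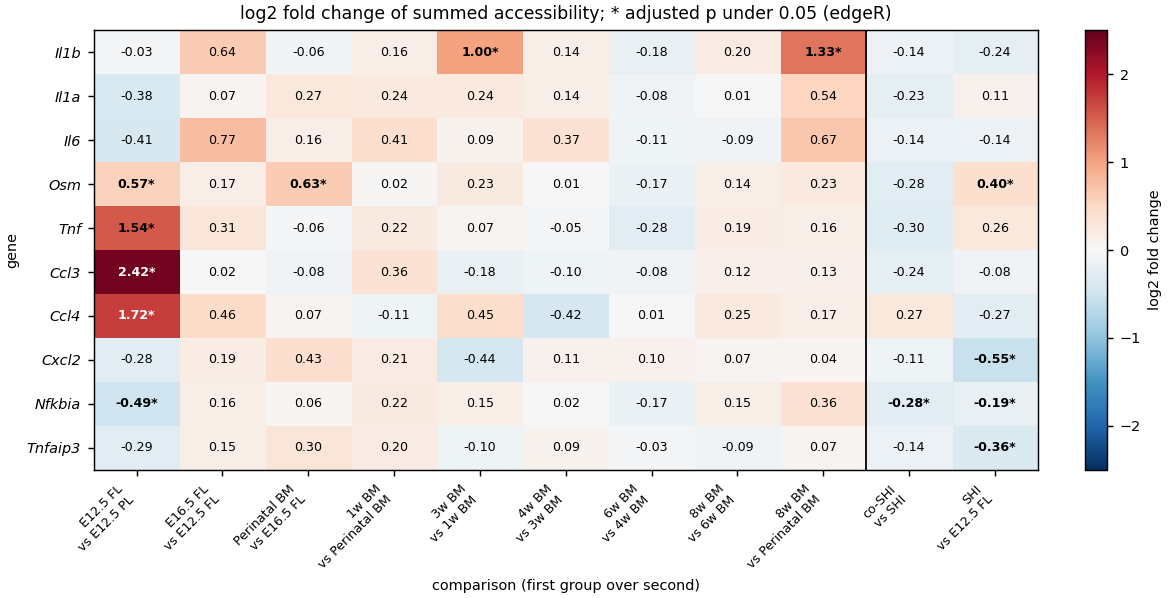
log2 fold change of the summed accessibility of each of the 10 genes in each comparison, first group over second, with an asterisk at an adjusted p under 0.05 (edgeR). In marrow after birth only Il1b is called, for 3w over 1w and for 8w over Perinatal. The 2 columns right of the line come from the cultured table.

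The wider pathway was counted over 4 lists, to be read against the 26.8% of all genes higher and 22.6% lower in E12.5 FL. Of 28 NF-kB subunits and regulators, 6 were higher and 6 lower in E12.5 FL than in E12.5 PL. The A20-binding inhibitor gene Tnip3 was among the higher ones, at 112 ± 25.9 against 25.4 ± 6.18 CPM (log2 fold change 2.13 ± 0.17). Tbk1, an IKK-related kinase, was among the lower ones (log2 fold change -0.75 ± 0.12). Of 13 receptors of these ligands 6 were higher, such as Tnfrsf1b (TNFR2, log2 fold change 1.09 ± 0.14), and 3 lower, led by Osmr, the oncostatin M receptor, at 32.4 ± 3.15 against 89.7 ± 26.3 CPM. Of 24 other inflammatory targets tested 8 were higher, among them the chemokine Cxcl3 (log2 fold change 1.35 ± 0.18), and 5 lower, led by Vcam1 (-1.88 ± 0.29). Of 17 immediate early genes none was higher and 13 were lower, among them Klf4 (-1.26 ± 0.11) and Atf3 (-1.34 ± 0.12).

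In Perinatal marrow, against E16.5 FL, 5 of the 28 NF-kB genes were higher and none lower, where 16% of all genes were called and 9.22% were higher. They included Nfkb1, which encodes p105 and p50 (286 ± 33.5 against 225 ± 10.2 CPM, log2 fold change 0.35 ± 0.11), and Bcl3, a nuclear IκB protein (182 ± 31.2 against 110 ± 7.89 CPM, log2 fold change 0.73 ± 0.12). Receptors changed in the same step: 4 of 13 were higher, among them Il1r1 (150 ± 17.9 against 97.3 ± 8.74 CPM) and its partner Il1rap (102 ± 22.1 against 63.5 ± 8.37 CPM), and 1 was lower. Of the other targets 2 were higher, Ptgs2 (COX-2, log2 fold change 0.94 ± 0.23) and Birc3 (0.42 ± 0.15), and 1, Nos2, lower (-0.92 ± 0.24). Of the immediate early genes 4 were higher, among them Nr4a1 and Junb. The median log2 fold change of the 10 members was 0.12 in that step, of the NF-kB list 0.17, and of all genes -0.03.

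For 8w over Perinatal marrow, where 4.62% of all genes were called and 1.93% were higher, 1 NF-kB gene was higher (Irak4, 0.42 ± 0.12) and 1 lower (Tbk1, -0.71 ± 0.12). Of the other targets 3 were higher, Zc3h12a, whose product Regnase-1 degrades cytokine mRNAs (388 ± 31.6 against 258 ± 10.6 CPM, log2 fold change 0.59 ± 0.10), Il10 (0.53 ± 0.14) and Lif (0.43 ± 0.12). Of the receptors 1, Ccr1, was lower (-0.36 ± 0.10), and of the immediate early genes 3 were higher, led by Jun (264 ± 95.9 against 65.9 ± 8.46 CPM). Jun and 6 other immediate early genes were higher at 6w than at 4w, with Fos at 603 ± 214 against 316 ± 17.9 CPM, an interval in which no member and 0.19% of all genes were called.

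Among the 5 genes whose pattern over the 9 group means was most like the mean of the 10 members were Tmem201, Gpr25, Neu2 and Fbxo32, with Pearson correlations of 0.99 for each on a log2 scale (CPM plus 0.5). Without E12.5 PL, over 8 groups, they were Gpr25, Kdm3a, Cish, Aldh6a1 and Arnt, also at 0.99. Among the members themselves the closest pair over 9 groups was Tnf and Ccl4 (0.98) and the least alike Ccl3 and Nfkbia (-0.16). Gpr25 alone was in both lists, and group means share libraries and scaling.

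Cells kept for 2 h were compared within their own table, where region totals were 14280440 to 20092146 per co-SHI library and 7512258 to 11655458 per SHI library. Nfkbia was the only member called between the media. It had 93.5, 90.2 and 94.2 CPM in co-SHI against 109, 104 and 124 CPM in SHI, without overlap, a log2 fold change of -0.28 ± 0.07 (edgeR, adjusted p = 0.0273). Leaving out any 1 library except co-SHI replicate 3 ended the call, with adjusted p-values of 0.0612 to 0.133. In that comparison 6.85% of genes were called and 2.39% lower. The median log2 fold change of the 10 genes was -0.19, that of all genes -0.01, and 9 of the 10 had a negative value, Ccl4 being the exception at 0.27 ± 0.12 (adjusted p = 0.190).

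The one region called of 52, against 0.56% of all regions in either direction and 0.332% lower, was a distal one of Nfkbia, chr12:55466229-55467302, 22644 bp past its 3′ end. It had 11, 10.4 and 9.81 CPM in co-SHI against 14.4, 16.9 and 20.3 CPM in SHI (log2 fold change -0.71 ± 0.16, adjusted p = 0.0309). The call ended when SHI replicate 2 or 3 or co-SHI replicate 1 or 2 was left out (adjusted p = 0.0990 to 0.189), and after thinning to the smallest library. The Nfkbia start-site region (chr12:55492389-55493034) had 35.9, 33.9 and 39.6 CPM in co-SHI against 46.9, 45.9 and 53.5 CPM in SHI and fell short of the threshold (log2 fold change -0.41 ± 0.11, adjusted p = 0.0732). Ccl3 averaged 63.3 ± 7.57 CPM in co-SHI and 74.9 ± 2.64 CPM in SHI, and 1 co-SHI library, at 72.0 CPM, overlapped the SHI range (adjusted p = 0.0877). Il1a, Tnf, Osm and Tnfaip3 were below every SHI library in all 3 co-SHI libraries and were not called, with adjusted p-values of 0.252, 0.108, 0.108 and 0.196. The share of all genes separated in this way was not counted, so the separation is not read as a trait of these genes. The macrophage and monocyte markers summed to 613 to 675 CPM in co-SHI and 602 to 826 CPM in SHI. Over all the marker lists 4 genes were called: Ly6a (Sca-1) was lower in co-SHI, at 11.7 ± 1.33 against 22.4 ± 5.50 CPM (adjusted p = 0.00591), and Pecam1, an endothelial marker, was lower (0.0436). The macrophage marker Adgre1 (0.0237) and the globin gene Hbb-bs (0.0352) were higher. None of the marker genes tested was at 0, and their part in the result was not tested.

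Of the 28 genes of the NF-kB list 4 were lower in co-SHI and 1 higher, where 6.85% of all genes were called and 2.39% were lower. The lower ones were the subunits Rela (39.4 ± 1.37 against 53.6 ± 2.84 CPM, log2 fold change -0.43 ± 0.08) and Nfkb2 (-0.29 ± 0.08), the adaptor Traf2 (-0.30 ± 0.07) and Bcl3 (-0.26 ± 0.07). Of 25 other targets 2 were lower, Lif (-0.34 ± 0.08) and Nos2 (-0.43 ± 0.10), and of the immediate early genes 2 were lower, Dusp1 and Egr1. Of the receptors Ccr1 was higher (0.24 ± 0.06) and Il1r1 lower (-0.29 ± 0.07).

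SHI cells were also set against the 3 columns named E12.5 FL in that table, whose totals were 16097639 to 22061805. Those columns did not vary together with the same-named developmental libraries (correlations of deviations -0.13, -0.03 and 0.03), so they may not be the same libraries, and culture and experiment cannot be told apart. Osm was higher in SHI, at 37.7, 35.9 and 38.4 CPM against 30.3, 28.6 and 26.1 CPM (log2 fold change 0.40 ± 0.10, adjusted p = 0.00299). Cxcl2 was lower, at 21.8, 21.7 and 25.4 CPM against 36.0, 33.1 and 32.5 CPM (-0.55 ± 0.11, adjusted p = 0.000253), as was Tnfaip3, at 106, 107 and 112 CPM against 142, 131 and 144 CPM (-0.36 ± 0.06, adjusted p = 7.88e-05). Nfkbia was also lower, by a smaller margin and with overlapping libraries (-0.19 ± 0.07, adjusted p = 0.0310). The Nfkbia call ended without E12.5 FL replicate 1 or 3 or SHI replicate 1 or 2 (adjusted p = 0.0605 to 0.147), with a log2 fold change as small as -0.14. That of Tnfaip3 ended when only its regions within 5 kb were summed (-0.15, adjusted p = 0.163). These 4 of 10, 1 higher and 3 lower, stand against 38.5% of all genes, 19.5% higher and 19% lower. Markers moved in the same comparison. Ly6a was higher in SHI, at 22.4 ± 5.50 against 8.29 ± 1.09 CPM, as were Ly6c2, Fcgr1, Itgam, Mpo, Hbb-bt and Kdr, while S100a9, Cd4, Ncr1, Cpa3 and Alb were lower. The 10 macrophage and monocyte markers summed to 602 to 826 CPM in SHI and 541 to 650 CPM in the E12.5 FL columns. The part of these markers was not tested.

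Of the 52 regions 7 were higher and 4 lower in SHI, against 18.6% of all regions, 11.6% higher and 7.04% lower. With total counts 41.6% of all regions called were higher, and log2 fold changes over all regions had a median of -0.14, against -0.01 as scaled here. The upstream Tnfaip3 region (chr10:19062000-19063261), over the same place as the one called at the move to marrow, averaged 24.4 ± 3.45 CPM in SHI and 44.3 ± 3.12 CPM in the E12.5 FL columns (-0.86 ± 0.12, adjusted p = 6.89e-07). A pair of neighbouring regions at one end of Osm were higher, chr11:4236626-4237171 at 8.92 ± 1.23 against 4.22 ± 0.549 CPM and chr11:4237433-4237950 at 13.3 ± 1.74 against 7.43 ± 0.355 CPM. The distal Il1b region stayed low in culture, at 4.21, 4.13 and 3.57 CPM in co-SHI and 4.55, 3.02 and 4.62 CPM in SHI, with 4.94, 4.49 and 4.82 CPM in the E12.5 FL columns. Peaks nevertheless overlapped it in 2 of 3 co-SHI and 3 of 3 SHI libraries.

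**Figure D5:**
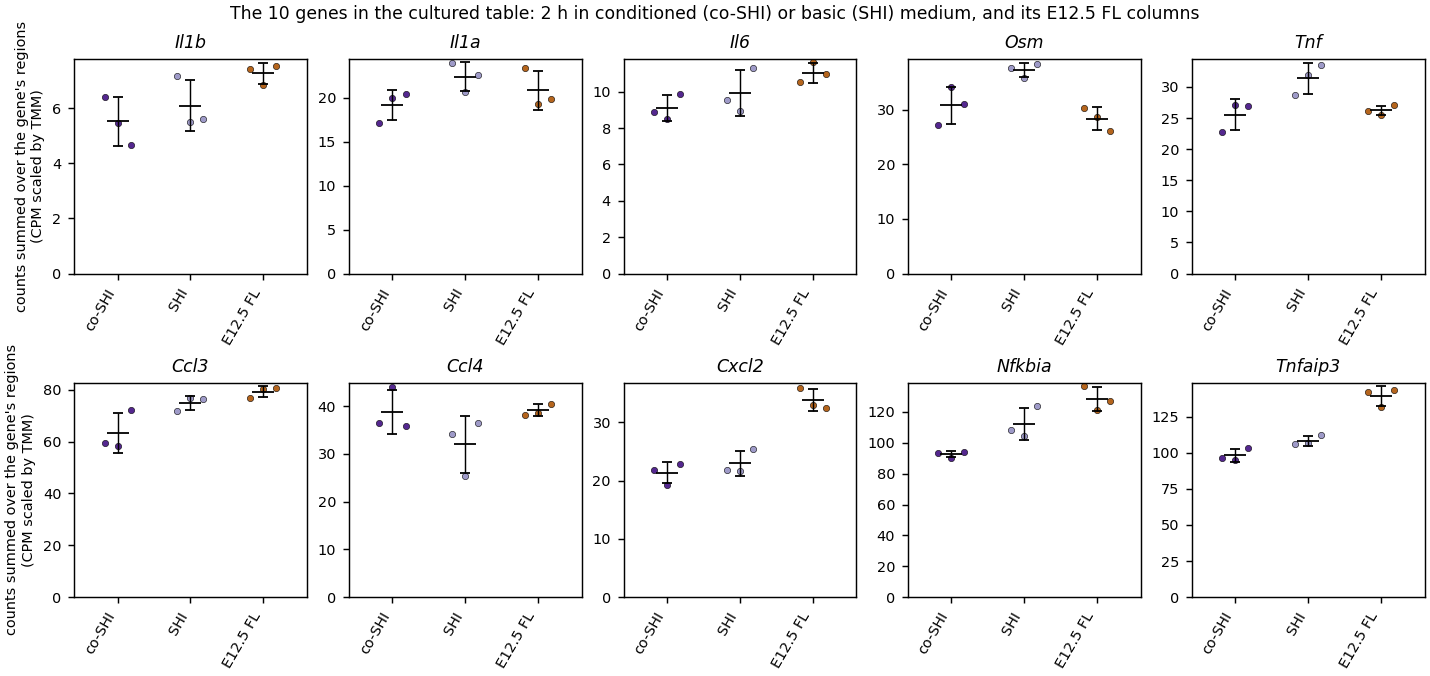
Summed accessibility of each of the 10 genes in the cultured table, in CPM scaled by TMM within that table: each library as a point, group mean and SD as bars, for co-SHI, SHI and the columns named E12.5 FL. The 3 co-SHI libraries are below the 3 SHI ones for Nfkbia.

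Deposited peaks give a second reading of the time course. An E12.5 FL library had a peak at 5 to 8 of the 52 developmental regions, an E12.5 PL one at 5 to 13, an E16.5 FL one at 4 to 8, one of Perinatal marrow at 11 to 19 and one of 1w marrow at 16 to 29. From 3w to 8w the lowest and highest counts were 14 and 28. The whole peak lists grew as well, with 9361 to 16999 peaks in E16.5 FL, 24038 to 40830 in Perinatal marrow and 30360 to 50706 at 1w, so the number at these genes is not separate from the length of the list. In all, 44 of the 52 regions had a peak in at least 1 library, and 2 regions, those over the start sites of Nfkbia and Tnfaip3, had one in all 26.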

How the data were processed

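ATAC-seq was done on 32 libraries of LSK cells. The authors deposited 2 tables of counts per merged region, and peak lists per library with a score, a fold enrichment ratio and -log10 p and q per peak. Trim Galore, MACS2, deepTools, DiffBind and HOMER are named in the submitters' processing notes, with build mm10 and no versions. The aligner is not given in the sources used here.

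Regions were assigned to the nearest of 20340 named RefSeq genes within 50000 bp. Counts per region, and summed per gene, were tested with edgeR 4.0.16 (R 4.3.3, quasi-likelihood test, TMM scaling, filterByExpr with a minimum count of 10), with all groups of a table in one fit, and p-values were adjusted over the whole table by Benjamini-Hochberg, with a threshold of 0.05. The SHI and co-SHI libraries were fitted together for their comparison, and with the E12.5 FL columns for the other. CPM were scaled by TMM, with library totals and factors taken separately for regions and for gene sums. A gene's CPM is therefore not the sum of its regions' CPM. Log2 fold changes of genes and of regions can differ by this scaling alone. Intervals are 1.96 SE. Alternatives used DESeq2 1.42.0, limma 3.58.1, other scalings and filters, thinning, single left-out libraries, a replicate block and peaks with a -log10 q of at least 5. Scripts were tested on simulated data. Named were the 10 genes, the most open region of each, the called regions with the smallest p (up to 6 per comparison) and up to 4 called genes per list. Members and lists were chosen with earlier results of these data known. Region totals were 2845113 to 22061805 per library, and counting error alone was smaller than the spread between replicates (chi-square per region of 2.08 to 5.03). One gene that the rule for likeness selects is not reported here.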

Additional observations from a re-analysis of the deposited data

How the results depend on the processing

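The scalings, tests, filters and left-out libraries gave 2536 recomputed values for named genes and regions. Of these, 2375 stayed on their side of the threshold and, where called, kept their direction. A further 141 lost the call, 19 gained one, and 1 changed sign with a call in at least 1 of the fits compared. Sign changes between fits that both missed the threshold were not counted. The sign change was that of Il1a in E12.5 FL against PL, at a log2 fold change of 2.25 when only regions within 5 kb were summed, which drops the distal region that is less open in E12.5 FL. The causes of the other changes were not tested. Peaks and depth limit the weaker regions: most distal regions hold a few CPM.

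Counting only regions within 5 kb of a gene gave 13 called regions for E12.5 FL against PL in place of 28, 6 for SHI over E12.5 FL in place of 11, and 1 for 8w over Perinatal marrow in place of 2. It gave 0 called regions over any marrow group and for co-SHI over SHI, and 0 called genes for 3w over 1w, for 8w over Perinatal marrow and over any marrow group, each in place of 1. For Perinatal marrow over E16.5 FL the 5 regions became 3 with DESeq2 size factors in edgeR, 2 with total counts, 0 with cyclic loess offsets and 2 with the compared groups alone. For co-SHI over SHI the single region became 2 with total counts and 2 with cyclic loess offsets, and the single gene became 2 with the E12.5 FL columns also in the fit. Over any marrow group the single region became 2 with cyclic loess offsets and 3 with the compared groups alone, and the single gene became 2 with the compared groups alone. For 3w over 1w the single gene became 0 after thinning to the smallest library and with the compared groups alone.

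With each library left out in turn, called genes ranged from 0 to 1 for 3w over 1w, from 1 to 2 for 8w over Perinatal marrow, from 0 to 1 for Perinatal marrow over E16.5 FL and from 0 to 2 for co-SHI over SHI. Called regions ranged from 1 to 3 for 8w over Perinatal marrow, from 1 to 6 for Perinatal marrow over E16.5 FL, from 1 to 2 over any marrow group and from 0 to 3 for co-SHI over SHI. For E12.5 FL against PL they ranged from 21 to 24, below the 28 of all libraries.

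Same-numbered libraries did not vary together (correlations of deviations from -0.14 to 0.33 among comparisons with 3 pairs). With the replicate block, 2 genes were called for 8w over Perinatal marrow and 2 regions over any marrow group, each in place of 1, and 6 genes for E12.5 FL against PL in place of 5.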
